A study of Mus musculus with 5 samples.

Results

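Expression of 8 genes that code for ligands of checkpoint receptors was followed through 5 single-cell RNA libraries of mouse 4T1 mammary tumors. The genes are *Cd274* (PD-L1), *Pdcd1lg2* (PD-L2), *Cd80*, *Cd86*, *Cd276* (B7-H3), *Pvr*, *Nectin2* and *Lgals9* (galectin-9). They were picked out by symbol, with earlier results of these data known. All 8 were found by Ensembl identifier in both feature lists of the series, among 32285 features in the T cell libraries and 54987 in the whole-tumor libraries, where *Nectin2* carries its older symbol Pvrl2. Level and share of positive cells were measured in cancer, fibroblast, macrophage, dendritic, neutrophil and T cell gates of each library.

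4T1 is a triple-negative mammary carcinoma line of BALB/c mice, and here the cells grew in the mammary fat pad of immunocompetent female BALB/c mice labelled as 12 weeks old. Doxorubicin (DOX), an anthracycline that damages DNA, was given into the tail vein at 5 mg/kg in 3 treatments, 3 days apart, and treated tumors were binned by their growth into DOX sensitive and DOX resistant. In 3 libraries, whole digested tumors were sequenced: a saline-treated control, a DOX sensitive and a DOX resistant library. The remaining libraries, called T cell libraries, hold cells of DOX sensitive and of DOX resistant tumors after bead depletion of non-T cells and of cancer cells, with cells of several tumors pooled. Cancer, fibroblast and myeloid cells in these T cell libraries are therefore the residue that escaped depletion, and the number of such cells says nothing of their number in the tumor. Each group has 1 library, so no difference between groups has a replicate check, no p-value is given, and the 95% intervals below cover the counting of molecules only. The source field of the labels calls the tumors of all 3 whole-tumor libraries sensitive, whereas title and sensitivity field name 1 of them resistant. The control is named by its title and by the saline in its source field, and its sensitivity field gives no class. Groups follow the titles, and these libraries are called by their label throughout.

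The B7 family and its relatives are membrane proteins that tune T cells at the moment of antigen contact. PD-L1 and PD-L2 bind PD-1 and restrain activated T cells, and interferon gamma is a classical inducer of PD-L1. CD80 and CD86 stimulate T cells through CD28 and are withdrawn by CTLA-4, and they are known from antigen-presenting cells. PVR and nectin-2 are adhesion proteins of epithelial and stromal cells that signal through CD226 or, in the opposite sense, through TIGIT, while galectin-9 is a sugar-binding protein known as a ligand of TIM-3.

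On GRCm38, *Cd274* lies at chr19:29367455-29388095 on the plus strand and *Pdcd1lg2* follows on the same strand at chr19:29410919-29471161, 22823 bases further on. *Cd80* lies at chr16:38455561-38496335 (plus) and *Cd86* at chr16:36603869-36666081 (minus). *Nectin2*, at chr7:19716644-19750483 (minus), and *Pvr*, at chr7:19903578-19921160 (minus), also share a chromosome arm. *Cd276* occupies chr9:58524298-58555437 (minus) and *Lgals9* chr11:78962974-78984946 (minus). All 8 are annotated as protein coding. Annotated transcripts of the opposite strand overlap *Cd274*, *Pdcd1lg2*, *Pvr* and *Nectin2*, and an unclassified transcript overlaps *Cd276*.

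Promoter sequences of 6 of the 8 genes were matched in RefSeq (GRCm38.p6). A search of both strands for GAAANNGAAA, the core of an interferon-stimulated response element, found 2 matches in the promoter of *Lgals9* and none in the other 5, and 3.45% of 32544 mouse promoters of the same length held at least 1. The promoters of *Cd274* and *Lgals9* are shown because these genes stood highest in the neutrophil gate and in the interferon-signature T cells described further on. Each runs 5′ to 3′ from 250 bases before to 30 bases after the annotated start (chr19:29367188-29367467, plus strand, and chr11:78984895-78985174, minus strand), with the matches in capitals.
Cd274 promoter: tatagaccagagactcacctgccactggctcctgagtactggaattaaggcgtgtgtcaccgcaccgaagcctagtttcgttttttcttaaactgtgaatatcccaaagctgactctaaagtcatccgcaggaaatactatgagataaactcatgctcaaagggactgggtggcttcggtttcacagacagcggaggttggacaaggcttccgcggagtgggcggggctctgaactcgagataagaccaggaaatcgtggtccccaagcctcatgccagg
Lgals9 promoter: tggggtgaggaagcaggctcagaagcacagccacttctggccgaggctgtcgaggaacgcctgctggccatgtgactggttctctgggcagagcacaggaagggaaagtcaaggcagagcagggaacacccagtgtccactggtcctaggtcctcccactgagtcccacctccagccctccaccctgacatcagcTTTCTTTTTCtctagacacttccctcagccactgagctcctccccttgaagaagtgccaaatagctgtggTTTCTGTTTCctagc
Both capital runs of *Lgals9* are the reverse complement of the searched letters, and *Cd274* has none in this window.

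The T cell libraries held 3949 (sensitive) and 6116 (resistant) barcodes with 31690845 and 35908799 molecules, counted by unique molecular identifier (UMI), of which 3448 and 3091 cells were kept. The whole-tumor libraries were much smaller, at 501 (control), 278 (sensitive) and 275 (resistant) barcodes with 537293 to 1731940 UMIs. Of the kept cells, 84.8 to 93.1% fell into the 6 gates. Over all barcodes, before filtering, mitochondrial UMIs had a median share of 2.47% (T cell sensitive) and 8.95% (T cell resistant). With a limit of 20% in place of 10%, all 33 ratios of the 8 genes between these libraries stayed within their counting intervals. The T cell libraries shared 31 barcodes and the other pairs of libraries at most 4. Markers not used for gating, such as Col1a1 for fibroblasts and S100a8 for neutrophils, were higher in their own gate than in the others, with the exception of Lcn2 in the sensitive whole-tumor library (1325 CPM in neutrophils against 8089 in the other gates) and of Cd5, which had 0 UMIs in the 3 T cells there. No library of whole tumors held a dendritic cell by the markers used. The T cell gate held 64 control cells, or 13.1% of kept cells, against 3 cells (1.12%, sensitive) and 13 cells (4.94%, resistant). The T cell share was thus highest in the library titled control and lowest in the one titled sensitive, and whether these libraries carry the right titles is in doubt and could not be settled. Every ratio between whole-tumor libraries rests on the titles, that of sensitive over resistant too. A ratio to the control would not compare DOX with saline if titles were exchanged. Levels are UMIs summed over the cells of a gate and divided by all UMIs of that gate, per 1000000 (CPM), and since 3′ ends were counted they need no correction for gene length.

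*Cd274* stood highest in neutrophils. In the T cell libraries its level in neutrophils was 695.5 CPM (sensitive, 134 cells) and 703 CPM (resistant, 161 cells), 5.17-fold [95% interval 4.33 to 6.15] and 4.82-fold [4.08 to 5.69] above the macrophages that came next. Macrophages held 135 and 146 CPM, dendritic cells 80.6 and 80.8 CPM, and T cells 40.1 and 31.0 CPM. At the lower end stood cancer cells, with 7.02 and 8.14 CPM, and fibroblasts, with 4.58 and 3.46 CPM. Every step in this order exceeded its counting interval in both libraries except the last, cancer over fibroblast, which did so in the resistant library only.

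Since cells of the gates differ in depth, with medians of 2220.5 and 2458 UMIs per neutrophil against 3947 and 4534 UMIs per T cell and 9327.5 or more in the remaining gates, shares of positive cells were taken after thinning each cell to 1000 UMIs. By that measure 36.6% (sensitive) and 41.6% (resistant) of neutrophils held a *Cd274* UMI, or 53.7% and 62.1% unthinned. Macrophages had 8.56% and 13.5%, dendritic cells 2 of 22 and 3 of 44 cells, and T cells 3.88% and 3.01%. Fibroblasts, the gate with the least, had 0.628% and 0%, the last being 0 of 591 cells, which allows up to 0.508% of cells with a UMI at this depth and does not limit the share that express the gene, since 36 UMIs were counted there before thinning. Free RNA from neutrophils, judged by S100a8 and S100a9 molecules found in other gates, would account for at most 1.20 CPM of *Cd274* in any other gate of these libraries, far under the macrophage, dendritic and T cell levels.

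**Figure D1:**
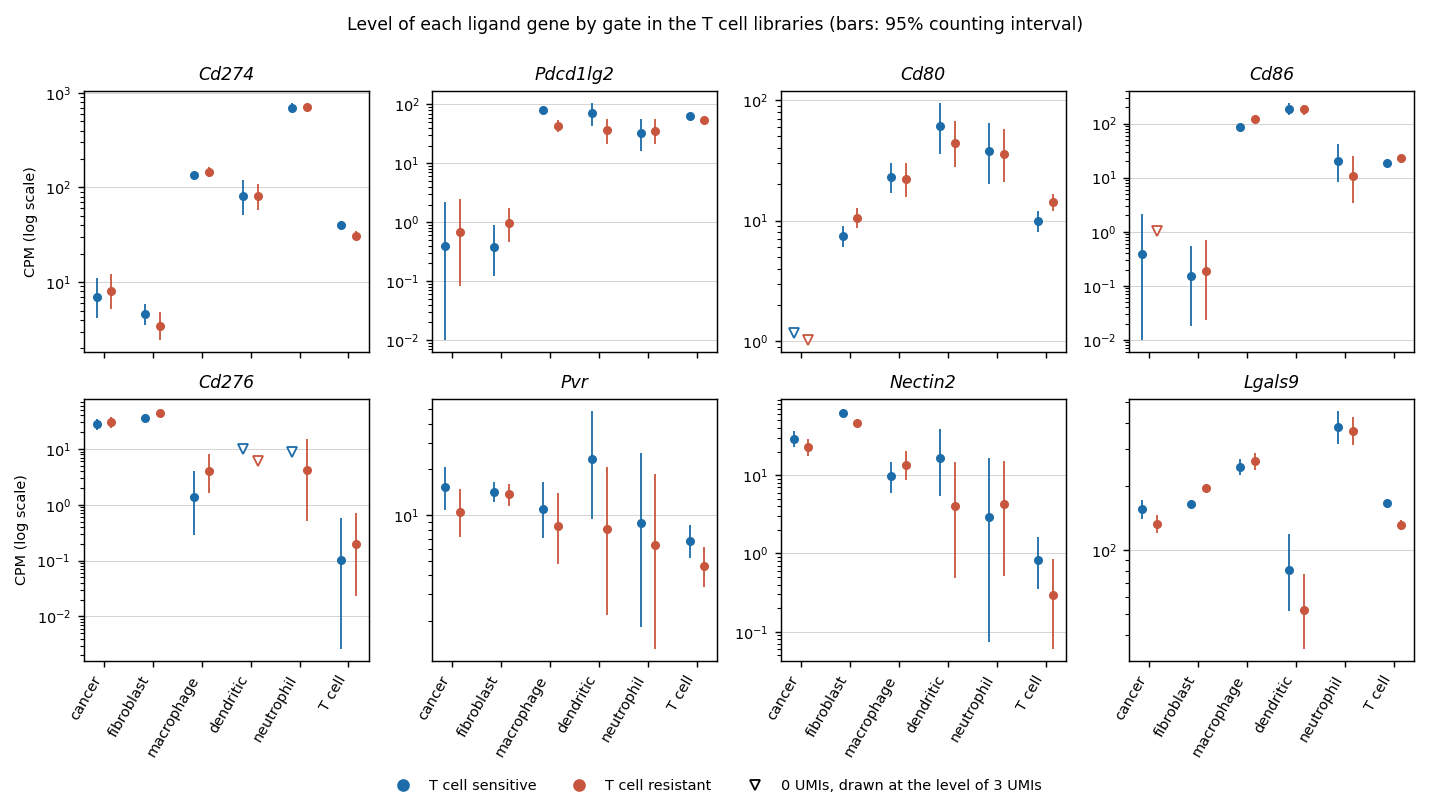
Level of the 8 ligand genes (CPM, log axis) in the 6 gates of the T cell libraries, with points for the sensitive (blue) and resistant (red) library, bars for the 95% counting interval and open triangles for 0 UMIs. *Cd274* peaks in neutrophils at 695.5 and 703 CPM, *Cd86* in dendritic cells at 188 and 182 CPM, and *Cd276* and *Nectin2* in fibroblasts, while *Lgals9* is above 50 CPM in every gate.

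Within these gates *Cd274* hardly separated sensitive from resistant tumors. The CPM ratio of sensitive over resistant was 0.989 [0.833 to 1.17] in neutrophils, 0.922 in macrophages, 0.998 [0.576 to 1.70] in dendritic cells, 0.863 in cancer cells and 1.32 in fibroblasts. In T cells it was 1.29 [1.11 to 1.51], an interval above 1, but below the 1.5-fold used here as the mark of a difference worth counting. For reference, 16.2% of the 11350 genes with at least 20 UMIs in the T cell gate were past 1.5-fold, and the median ratio of all of them was 1.11. None of the 6 ligand genes counted there was past it.

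The whole-tumor libraries, read by another version of the counting software against another feature list, allow a comparison with the library titled as saline control. Neutrophils were their largest gate, at 300 (control), 222 (sensitive) and 135 (resistant) cells. *Cd274* stood at 106 CPM [82.5 to 135] in the control, 401 CPM [341 to 468] in the sensitive and 326 CPM [267 to 394] in the resistant library, from 67, 159 and 107 UMIs. The library titled sensitive and the one titled resistant were 3.76-fold [2.81 to 5.08] and 3.06-fold [2.24 to 4.22] above the one titled control, with no overlap of the counting intervals, and 1.23-fold [0.956 to 1.59] apart from each other. Both ratios use the same control library, and with its title in doubt they are ratios between libraries, not between DOX and saline. After thinning to 500 UMIs, 6.67% of control, 18.8% of sensitive and 11.1% of resistant neutrophils held a *Cd274* UMI. The control was lowest by every count of positive cells, but sensitive and resistant changed places without thinning (35.6% and 40.7%), with thinning to 1000 UMIs (28.0% and 29.5%) and with at least 2 UMIs (18.5% and 20.7%).

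Many genes differed between these small libraries. Past 1.5-fold were 37.1% of 3120 genes in sensitive over control neutrophils, 33.7% in resistant over control and 27.5% in sensitive over resistant. Of the 4 ligand genes counted in each, 2, 2 and 1 were past it, and with so few members counted nothing is read from their number against those shares.

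The neutrophil gate was not of the same make-up in the 3 libraries. Cells with a UMI of Ngp or Camp, granule genes of immature neutrophils, made up 54 of 300 cells of the control gate, 9.01% of the sensitive and 2.96% of the resistant gate. These cells held little *Cd274* in the control, at 18.5 CPM from 4 UMIs. Without them *Cd274* stood at 153, 432 and 318 CPM, and the ratio of resistant over control became 2.09, still past 1.5-fold. Expression clusters of the gate gave the same order in 5 of 6. Cluster 6, marked by Ero1l, Hilpda and Ccl3 and, among its leading genes, by *Cd274* itself, held 458 (control), 855 (sensitive) and 733 CPM (resistant). Cluster 8 held 68.0, 406 and 279 CPM. Cluster 10, led by the interferon-inducible genes Rsad2, Cxcl10 and Isg15, differed. Its 5 control cells held 1878 CPM [1027 to 3151], against 497 and 487 CPM in 31 cells each of the libraries titled sensitive and resistant.

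**Figure D2:**
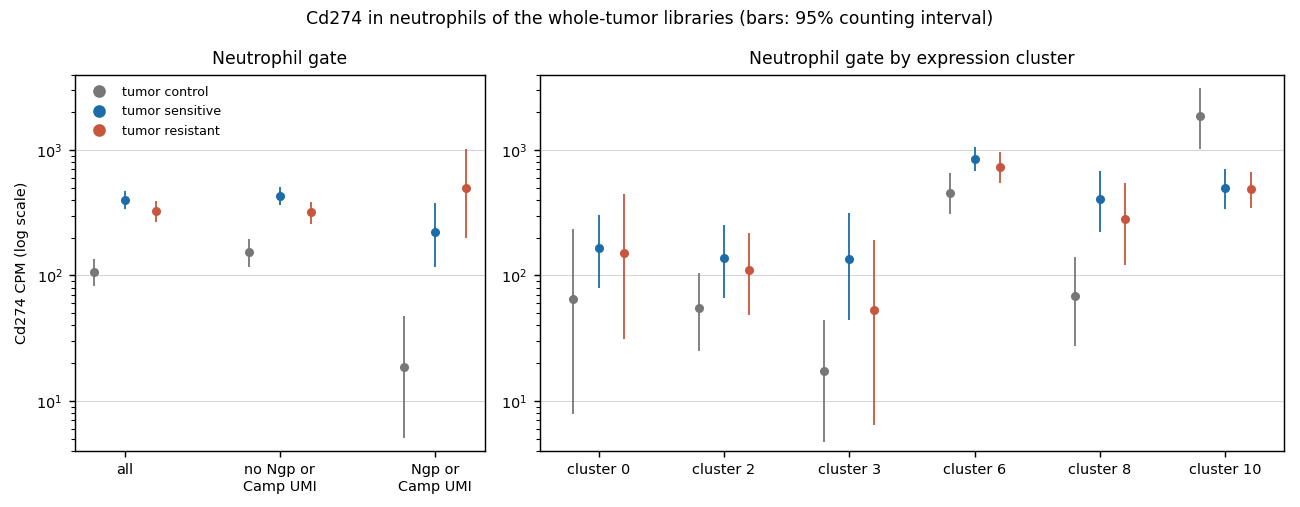
*Cd274* level (CPM, log axis) in neutrophils of the control (grey), sensitive (blue) and resistant (red) whole-tumor libraries, for the whole gate, for cells with and without an Ngp or Camp UMI, and by expression cluster, with 95% counting intervals. The control point is lowest everywhere but in cluster 10, which has 5 control cells at 1878 CPM.

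The interferon path that induces PD-L1 was followed by 7 genes in the same neutrophils. Of these (Ifngr1, Ifngr2, Jak1, Jak2, Irf1, Socs1 and Cmtm6, the last a stabiliser of PD-L1 protein), all counted, 4 were past 1.5-fold higher in sensitive over control and 3 in resistant over control, and none lower, where 37.1% and 33.7% of all genes were past it in either direction, most of them higher (816 of 1157 and 679 of 1002). Their median ratios were 1.55 and 1.48, against 1.13 and 1.12 over all genes. Irf1, an interferon-induced transcription factor, stood at 111 (control), 353 (sensitive) and 405 CPM (resistant), and Socs1, a feedback inhibitor, at 46.1, 202 and 152 CPM. Ifngr1 had the lowest ratio in both, 0.785 and 0.827. Between sensitive and resistant neutrophils none of the 7 was past 1.5-fold.

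The other gates of the whole-tumor libraries carried few *Cd274* UMIs. T cells held 7 UMIs in 64 control cells (63.9 CPM), and neutrophils there were 1.67-fold above them [0.766 to 4.30], which is within counting error. Cancer cells held 7 UMIs in 33 control cells (12.0 CPM), 0 in 6 sensitive cells and 14 in 45 resistant cells (15.3 CPM), and the ratio of resistant over control was 1.28 [0.482 to 3.73], or 3.30 as a mean over cells. Macrophages held 0 UMIs in 10 control cells, where the counting interval reaches 89.6 CPM, and 22 UMIs in 37 resistant cells (91.2 CPM). With the control set to 3 counts the ratio of resistant over control was 1.25. The counting intervals of both levels overlap, so no minimum of the ratio is given. Computed the same way with gates from clusters, that ratio was 3.43.

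*Pdcd1lg2*, the second PD-1 ligand and the chromosomal neighbour of *Cd274*, had another distribution. In the sensitive T cell library macrophages (81.8 CPM), dendritic cells (70.5 CPM) and T cells (63.8 CPM) came first, neighbours in that order not differing beyond counting error, although the intervals of macrophages [70.2 to 94.7] and T cells [58.8 to 69.0] did not overlap. Neutrophils followed at 32.3 CPM. In the resistant library T cells led with 54.6 CPM, followed by macrophages with 42.6, dendritic cells with 36.3 and neutrophils with 36.0 CPM. Fibroblasts and cancer cells had under 1 CPM in both libraries, 0.382 to 0.962 CPM. Free RNA of the highest gate, judged by its markers, would give 0.368 CPM in cancer cells and 0.648 CPM in fibroblasts of the resistant library (source T cells), near the measured 0.678 and 0.962 CPM. In the sensitive library macrophages were the source and gave 0.0296 and 0.0738 CPM, against 0.390 and 0.382 CPM measured from 1 and 5 UMIs. T cells were not tried as a source there, so the libraries cannot be compared in this. After thinning, 4.51% and 5.57% of T cells were positive and no fibroblast was.

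Among the 8 ligand genes, macrophages held the only ratio between the T cell libraries that was past 1.5-fold with an interval clear of 1. *Pdcd1lg2* counted 178 UMIs in 188 sensitive and 75 UMIs in 148 resistant macrophages, a ratio of 1.92 [1.46 to 2.55]. It was the only 1 of 7 members past 1.5-fold in that gate, where 18.4% of 8710 genes were. The share of positive macrophages at 1000 UMIs was 8.56% (16 of 187 cells) against 0.676% (1 of 148), in a single random thinning. At 2000 UMIs it was 16.4% against 7.86%, and unthinned 35.6% against 27.7%, so the size of that gap depends on the thinning. Part of the sensitive macrophages had almost no counterpart in the resistant library. A cluster of 24 sensitive and 1 resistant cells, marked by Cd163, Ccl8 and Mrc1, genes of resident-type macrophages, held 161 CPM of *Pdcd1lg2* but only 9.84 CPM of *Cd274*. Another of 10 cells, marked by Alox15 and Saa3, held 0 UMIs of *Pdcd1lg2* and 546 CPM of *Cd274*. In the cluster common to both libraries (151 and 147 cells) *Pdcd1lg2* stood at 72.4 and 42.7 CPM, *Cd274* at 118 and 146 CPM.

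In dendritic cells *Pdcd1lg2* was 1.94-fold higher in the sensitive library [0.985 to 3.87], from 21 UMIs in 22 cells and 18 UMIs in 44 cells. In T cells the ratio was 1.17 [1.04 to 1.31], from 617 and 558 UMIs. Whole-tumor neutrophils held 27.0 CPM (control), 30.2 CPM (sensitive) and 30.5 CPM (resistant), with overlapping counting intervals. Sensitive over control was 1.12, but 0.540 with the higher minimum of genes per cell, so no direction can be given.

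**Figure D3:**
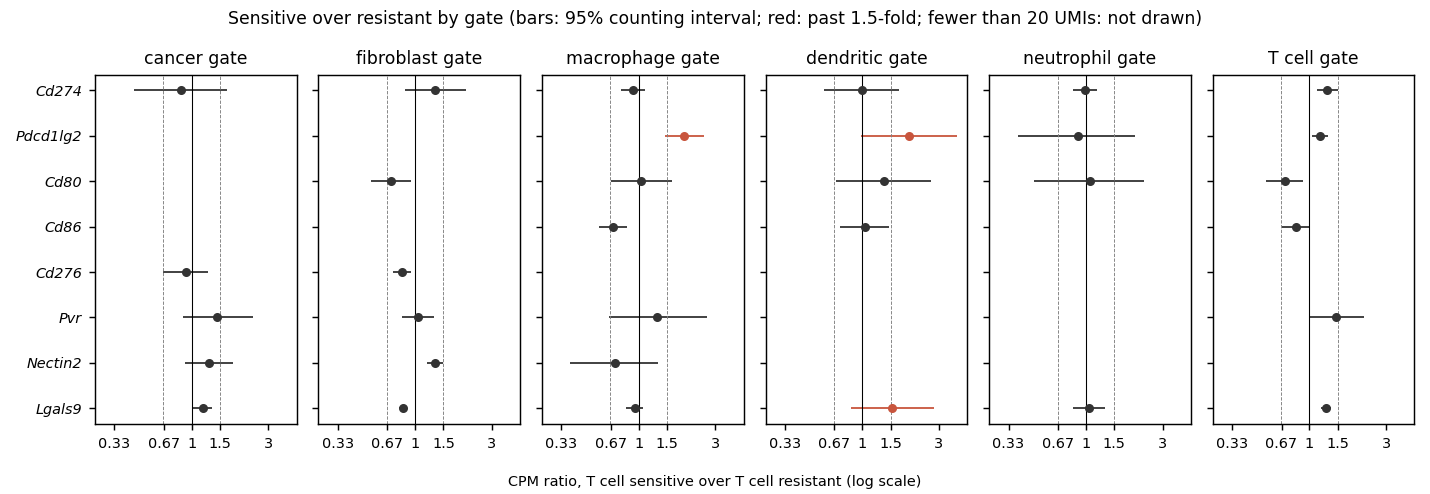
CPM ratio of sensitive over resistant T cell library (log axis) for each ligand gene by gate, with 95% counting intervals, dashed lines at 1.5-fold in either direction and red points for ratios past it. Red are *Pdcd1lg2* in macrophages (1.92) and dendritic cells (1.94) and *Lgals9* in dendritic cells (1.54), the last 2 with intervals that include 1.

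*Cd86* was a gene of dendritic cells and macrophages. In the T cell libraries (sensitive, then resistant) dendritic cells held 188 and 182 CPM and macrophages 85.0 and 123 CPM. T cells (18.8 and 22.8 CPM) and neutrophils (20.5 and 10.6 CPM) lay well below, and the non-immune gates had at most 2 UMIs each. After thinning, 3 of 22 and 11 of 44 dendritic cells and 5.88% and 13.5% of macrophages were positive, against 0 of 796 and 0 of 591 fibroblasts, which allows up to 0.377% and 0.508% of cells with a UMI at this depth. Before thinning 2 UMIs were counted in fibroblasts of each library. The macrophage ratio of sensitive over resistant was 0.689 [0.563 to 0.843], an interval below 1 that does not pass 1.5-fold. In whole-tumor macrophages *Cd86* counted 2 UMIs in 10 control cells and 26 UMIs in 37 resistant cells. Resistant over control was 2.22 [0.556 to 19.3] in a gate where 41.9% of 1846 genes were past 1.5-fold, and 1.30, no longer past it, with gates from clusters.

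*Cd80*, the sister ligand, was sparser. Its order was dendritic cells (60.5 and 44.4 CPM), neutrophils (38.1 and 36.0), macrophages (23.0 and 22.2), T cells (9.92 and 14.2) and fibroblasts (7.48 and 10.6 CPM), and among the first 3 neighbours did not differ beyond counting error in either library. Cancer cells had 0 UMIs in 108 and 135 cells, which allows 1.17 and 1.02 CPM by a floor of 3 counts. Ratios of sensitive over resistant were 0.700 [0.535 to 0.912] in T cells and 0.707 [0.533 to 0.937] in fibroblasts, both with intervals below 1 and neither past 1.5-fold. In whole-tumor neutrophils *Cd80* stood at 39.7 CPM (control), 22.7 (sensitive) and 45.7 (resistant). The sensitive library was thus past 1.5-fold below both others, at ratios of 0.571 [0.234 to 1.26] and 0.496 [0.191 to 1.21], on 9 UMIs and with intervals that include 1.

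Dendritic cells were described by single markers in 2 sets that were not made exclusive of each other. A further set, with Cd209a, is not described here. Cells with a UMI of Ccr7, the receptor of migrating mature dendritic cells, numbered 6 (sensitive) and 12 (resistant). Cells with Xcr1 or Clec9a, markers of cross-presenting dendritic cells, were 16 and 32. *Cd274* stood at 414 and 317 CPM in the Ccr7 cells against 25.6 and 30.2 CPM in the Xcr1 or Clec9a cells, and *Cd80* at 365 and 203 against 12.8 and 15.1 CPM. *Pdcd1lg2* was higher in Ccr7 cells too, at 219 and 203 against 51.2 and 10.1 CPM. *Cd86* was present in both, at 316 and 406 against 166 and 148 CPM. *Lgals9* went the other way, with 0 and 12.7 CPM (0 and 1 UMI) against 93.8 and 52.8 CPM. Each of these orders held in both libraries, on 6 to 32 cells, and Ccr7, Xcr1 and Clec9a are themselves among the markers of the gate.

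T cells themselves carried transcripts of *Cd274*, *Pdcd1lg2*, *Cd86* and *Lgals9*. Most T cells were CD8+ (1308 and 1552 cells). Those with UMIs of both Ifit1 and Ifit3, genes induced by type I interferon, numbered 96 and 87 and were set against the other CD8+ cells. *Cd274* stood at 143 and 87.7 CPM in the interferon-signature cells against 28.7 and 26.4 CPM in the others. *Lgals9* stood at 436 and 289 against 159 and 122 CPM, and *Cd86* at 55.5 and 39.9 against 21.5 and 22.4 CPM. *Pdcd1lg2* showed no such order, with 59.8 and 27.9 against 52.8 and 56.0 CPM. Median depth was alike, at 4193 and 4658 UMIs in the signature cells and 4021.5 and 4617 UMIs in the others.

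By lineage, CD4+ cells without Foxp3 held 102 CPM of *Pdcd1lg2* [82.7 to 126] and 2.20 CPM of *Cd86* [0.267 to 7.96] in the sensitive library (174 cells), outside the intervals of the whole T cell gate. In the resistant library (44 cells) they held 63.4 CPM [30.4 to 117] from 10 UMIs and 12.7 CPM [1.53 to 45.8] from 2 UMIs, which include the levels of the whole gate. Cells with Trdc, the constant region of the delta T cell receptor chain, and neither CD4 nor CD8 (76 and 16 cells) held 77.3 and 48.5 CPM of *Cd274* and 0 UMIs of *Cd80* and of *Cd86*. The 22 and 7 Foxp3+ CD4+ cells were too few to place.

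**Figure D4:**
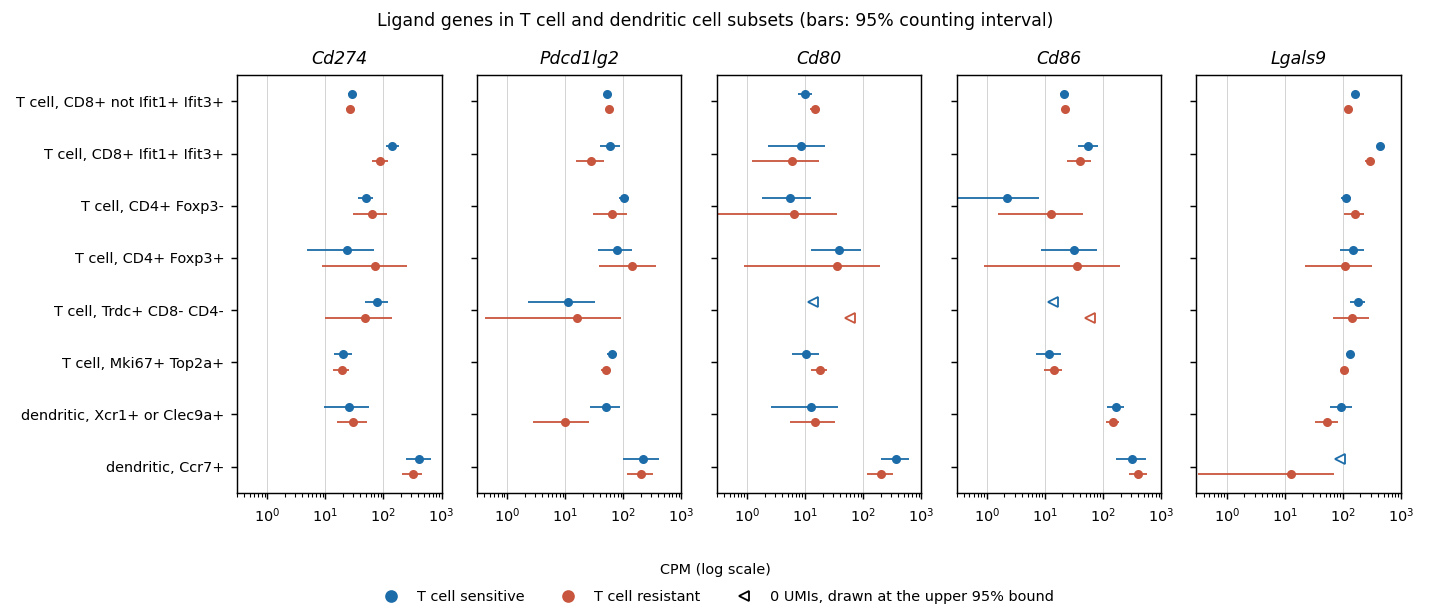
Level of 5 ligand genes (CPM, log axis) in T cell and dendritic cell subsets of the sensitive (blue) and resistant (red) T cell libraries, with 95% counting intervals and open triangles at the upper bound for 0 UMIs. *Cd274* and *Lgals9* are higher in CD8+ cells with Ifit1 and Ifit3 than in other CD8+ cells, and Ccr7 dendritic cells hold 414 and 317 CPM of *Cd274* but 0 and 12.7 CPM of *Lgals9*.

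*Cd276* belonged to the non-immune cells. Fibroblasts held 36.3 and 43.6 CPM and cancer cells 27.7 and 30.2 CPM in the sensitive and resistant T cell libraries, fibroblasts being 1.31-fold and 1.44-fold above cancer cells with intervals above 1. After thinning, 4.15% and 4.40% of fibroblasts were positive and no T cell was. Unthinned, macrophages had 3 and 7 UMIs, T cells 1 and 2, neutrophils 0 and 2, and dendritic cells none. The ratio of sensitive over resistant was 0.832 [0.730 to 0.948] in fibroblasts and 0.918 in cancer cells. In whole tumors the cancer gate held 10 UMIs (control, 17.1 CPM), 1 UMI (sensitive, 6 cells) and 23 UMIs (resistant, 25.2 CPM). Resistant over control was 1.47, but 0.683 as a mean over cells, so its direction is not settled. No neutrophil of any of the 3 libraries had a *Cd276* UMI.

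*Nectin2* followed the same cells, with a stronger lead of fibroblasts. Its levels were 61.4 and 46.3 CPM in fibroblasts, 29.3 and 22.7 CPM in cancer cells and 9.65 and 13.6 CPM in macrophages. T cells had 0.827 and 0.293 CPM. After thinning, 6.16% and 3.55% of fibroblasts were positive against 0.105% and 0% of T cells. Fibroblasts of the sensitive library stood 1.33-fold above those of the resistant library [1.18 to 1.49], an interval above 1 and below 1.5-fold.

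*Pvr* was the most evenly spread of the B7-related genes. Cancer cells (15.2 and 10.5 CPM), fibroblasts (14.2 and 13.7) and macrophages (11.03 and 8.53) did not differ from their neighbours in that order beyond counting error, and T cells came last with 6.72 and 4.60 CPM. Dendritic cells (23.5 and 8.08 CPM, from 7 and 4 UMIs) and neutrophils (3 UMIs in each library) were too thinly counted to place. After thinning, 1.76% and 1.02% of fibroblasts were positive against 0.735% and 0.390% of T cells. Ratios of sensitive over resistant were 1.45 in cancer cells and 1.46 [0.989 to 2.18] in T cells, on either side of 1.5-fold depending on the gates and filters (up to 1.56 and 1.53). In whole tumors *Pvr* counted 16 UMIs in control and 20 in resistant cancer cells (27.4 and 21.9 CPM), a ratio of 0.797 [0.393 to 1.65], or 0.433 as a mean over cells.

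No member was past 1.5-fold between the T cell libraries in cancer cells (0 of 5 counted, 15.5% of all genes) or in fibroblasts (0 of 6, 14.0% of all genes). Levels also differed by fibroblast cluster. *Nectin2* was highest in the cluster marked by Tagln and Acta2, genes of contractile fibroblasts (cluster 11), at 90.2 and 72.6 CPM, and lowest in the cluster marked by Igfbp5 and Mrgprg (cluster 5), at 20.9 and 30.7 CPM. *Cd276* had its highest level in cluster 5, at 51.9 and 50.8 CPM, and *Cd80* in cluster 11, at 12.1 and 19.5 CPM. *Pvr* in cluster 11 stood at 22.5 CPM (sensitive) and 13.8 CPM (resistant). Cluster 14, marked by Cilp, was almost confined to the sensitive library (139 and 4 cells), and its part in the ratios over the whole fibroblast gate was not tested.

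**Figure D5:**
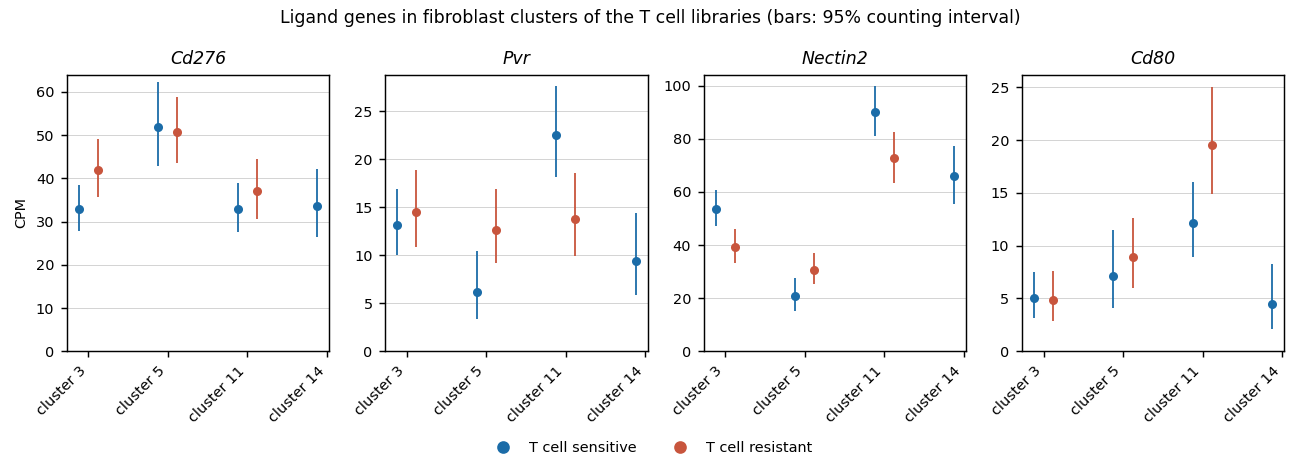
Level of *Cd276*, *Pvr*, *Nectin2* and *Cd80* (CPM, linear axis from 0) in fibroblast clusters of the sensitive (blue) and resistant (red) T cell libraries, with 95% counting intervals and clusters under 10 cells left out. *Nectin2* is highest in cluster 11 (90.2 and 72.6 CPM) and *Cd276* in cluster 5 (51.9 and 50.8 CPM).

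*Lgals9* was found in every gate. Neutrophils led with 381 and 364 CPM, 1.54-fold [1.26 to 1.87] and 1.38-fold [1.16 to 1.65] above macrophages at 248 and 263 CPM. T cells (166 and 132 CPM), fibroblasts (165 and 196 CPM) and cancer cells (156 and 133 CPM) formed a middle group, and dendritic cells came last with 80.6 and 52.5 CPM. After thinning, 24.6% and 27.3% of neutrophils, 21.4% and 24.3% of macrophages, 15.7% and 12.5% of T cells and 15.2% and 16.1% of fibroblasts were positive. The lowest shares were those of dendritic cells, 4.55% and 2.27%, and no gate lacked the gene. The ratio of sensitive over resistant was 1.26 [1.17 to 1.36] in T cells, 0.841 in fibroblasts and 1.54 [0.844 to 2.78] in dendritic cells. In dendritic cells it was thus 1 of 2 members past 1.5-fold among 5 counted, against 27.9% of all genes there. In neutrophils the ratio was 1.05, and 0 of 4 members counted were past 1.5-fold, against 27.8% of all genes.

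In whole tumors *Lgals9* was past 1.5-fold over control in cancer cells and neutrophils of the library labelled resistant, but not in macrophages (1.12, and 0.961 with a gate margin of 2 and 1.64 with gates from clusters), while T cells held 5 and 12 UMIs (86.4 CPM resistant and 109.6 CPM control). Cancer cells labelled resistant held 51 UMIs (55.8 CPM) against 10 UMIs in the control (17.1 CPM), a ratio of 3.25 [1.63 to 7.19], the only 1 of 4 members past 1.5-fold where 30.8% of 6442 genes were. Neutrophils held 95.4 CPM (control), 111 (sensitive) and 158 CPM (resistant), and resistant over control was 1.66 [1.12 to 2.45]. Without cells carrying Ngp or Camp that ratio was 1.31, no longer past 1.5-fold.

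On the side of the receptors, all 11 genes of the list (Pdcd1, Ctla4, Cd28, Icos, Tigit, Cd226, Cd96, Pvrig, Havcr2, Lag3 and Btla) were counted in the T cell gate. Past 1.5-fold higher in the sensitive library were 3 of them (Btla is the one not given below), and none was lower, where 16.2% of all genes were past it, 1348 higher and 489 lower. The median ratio was 1.31 against 1.11 over all genes. Ctla4, the inhibitory receptor for CD80 and CD86, stood at 432 against 190 CPM (2.28-fold [2.16 to 2.40]) and Icos, a costimulatory relative of CD28, at 338 against 128 CPM (2.64-fold [2.47 to 2.81]). The lowest ratios were those of Cd96, a further receptor for PVR, at 0.853, and of Pdcd1, which codes for PD-1, at 0.954 (396 against 415 CPM). CD4+ cells without Foxp3 were 9.05% of the sensitive and 2.45% of the resistant gate, and the part of this in the receptor levels was not tested. Of 15 other ligand genes, 8 were counted in T cells, where Tnfsf9 (4-1BB ligand) stood 2.63-fold and Cd70 1.82-fold higher and Tnfsf4 (OX40 ligand) stood lower, at a ratio of 0.302 from 30 and 105 UMIs.

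The 7 regulators of PD-L1 were all counted in T cells of the T cell libraries, and 4 were past 1.5-fold higher in the sensitive library, with none lower. Of all genes the same 16.2% were past it in either direction, 1348 higher and 489 lower. The median ratio of the 7 was 1.51, against 1.11 over all genes, and after division by the latter only Ifngr2 stays past 1.5-fold. The highest ratios were those of the chains of the interferon gamma receptor, Ifngr1 at 481 against 306 CPM (1.57-fold) and Ifngr2 at 5.79 against 2.25 CPM (2.57-fold), and the lowest was that of Jak1 at 1.15. Fibroblasts of the sensitive library held 105 against 49.2 CPM of Irf1 (2.13-fold) and 90.4 against 43.8 CPM of Socs1 (2.06-fold), the feedback inhibitor of the pathway, although *Cd274* there stayed under 5 CPM. In macrophages 2 of the 7 were past 1.5-fold higher, where 18.4% of all genes were past it in either direction. These were Jak2 at 59.7 against 26.7 CPM (2.24-fold) and Cmtm6, from 87 and 44 UMIs (1.60-fold, with an interval above 1), while Irf1 was at a ratio of 0.812 there and *Cd274* at 0.922.

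Over the 12 profiles of gate and library in the T cell libraries, the genes most like each member by Pearson correlation of log2(CPM + 10), among 12373 genes, describe where it is found. For *Cd274* these were Pik3ap1 (r = 0.986), Plek and Fgr, for *Pdcd1lg2* Cd200r1 (0.984), Itgb2 and Fermt3, and for *Cd86* Cd83 (0.982), Ubl3 and Gm2a. *Cd276* was followed by Rbfox2 (0.988), Scarf2 and Pam, *Nectin2* by Rnd3 (0.9803), Eif1a and Bbs5, and *Cd80* by Synj1 (0.978), Pmaip1 and Arrb1. *Lgals9* was most like Lgals8 (0.960), another galectin, with Oas1a and Ifih1, both interferon-inducible sensors of viral RNA, next. *Pvr* had the loosest likeness, with Fam135a (0.946), Rasal2 and Rps6kc1. The 12 profiles come from 2 libraries and share their depth by gate, so these values are a description.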

How the data were processed

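Single cells of 4T1 tumors were profiled with 10x Genomics Chromium 3′ chemistry. The authors deposited UMI counts per gene and barcode, made per the labels with Cell Ranger 3.0.1 or 6.0.0 against mm10. The feature lists show different annotations for the whole-tumor and T cell libraries, so levels were not compared between these sets. Only the log2 ratios of *Cd274*-positive over negative neutrophils were averaged over both sets, on genes counted in every library. Genes were joined by Ensembl identifier, and positions come from the reference annotation (GRCm38).

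Kept were cells with 500 or more detected genes and a mitochondrial share up to 10% (T cell libraries), or with 200 or more genes (whole tumor, where every mitochondrial feature had 0 UMIs). From the T cell libraries 112 and 159 putative doublets were removed by Scrublet score, at a rate of 0.8% per 1000 cells. A cell entered the gate whose marker score was at least 1.5 times the next, with at least 2 markers. Clusters are Leiden clusters. UMIs were summed per gate and scaled to CPM with exact Poisson intervals, ratios have exact conditional binomial intervals, and shares were taken after thinning to 1000 (T cell) or 500 (whole tumor) UMIs, with UMIs of a gate expected to lack the gene as background. A ratio needed 20 UMIs over both libraries and 10 cells in each, and 0 UMIs were set to 3 counts. Named genes are the 8 members, the 3 genes most like each, and from each pathway list at most the 2 highest and 2 lowest ratios of a gate. A gene of the list of PD-L1 regulators and a second promoter motif are not reported here. The members and lists were chosen with earlier results of these data known. Free RNA was gauged from markers of the highest gate found in other gates. Scripts used Python 3.11.15, scanpy 1.11.5, numpy 2.4.6 and scipy 1.17.1 and were tested on simulated data. UMIs behind each value set its precision, and intervals cover counting error only. Alternatives are listed at the end.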

Additional observations from a re-analysis of the deposited data

How the results depend on the processing

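Levels and ratios of the 8 genes by gate were recomputed with other gate margins, marker minimums and gates from clusters, without doublet removal, with other limits on genes and mitochondrial share, with means over cells, and after division by the median ratio of all genes. Doublet removal and the mitochondrial limit apply only to the T cell libraries. Neutrophils without Ngp or Camp, and macrophages without the clusters of the sensitive library, were added after seeing the data. Values of subsets, clusters and other genes were not recomputed, except that ratios of the pathway lists were also divided by the median ratio of all genes. No ratio of the 8 genes reported as past 1.5-fold changed its direction. Some reported short of it passed it in an alternative, on the other side of 1 for *Pdcd1lg2* in sensitive over control neutrophils (0.540) and on the same side for *Pvr*, *Cd80*, *Nectin2* and others (*Cd80* in dendritic cells up to 1.68, *Nectin2* in macrophages down to 0.569). Of 308 recomputed ratios between T cell libraries 302 stayed within the counting interval of the reported value, and of 139 between whole-tumor libraries 138 did. Shares of positive cells depend on depth far more, and 157 of 288 (T cell) and 52 of 208 (whole tumor) left their intervals without thinning, with deeper thinning or with at least 2 UMIs.

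*Pdcd1lg2* in macrophages was past 1.5-fold in 10 of 10 alternatives (lowest 1.74). *Cd274* in whole-tumor neutrophils over control was so in 8 of 8, for the library titled sensitive and for the one titled resistant. *Lgals9* in dendritic cells passed in 6 of 9 (1.30 to 1.89) and in resistant over control neutrophils in 6 of 8, *Cd80* in sensitive over control neutrophils in 6 of 8, and *Cd86* in resistant over control macrophages in 4 of 5.

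As a mean over cells, the *Cd274* ratio in neutrophils of the T cell libraries was 0.807 and the resistant level 790.3 CPM. Without Ngp or Camp the resistant level was 793 CPM in the T cell library, the control level in whole tumors 153 CPM, and the ratio of resistant over control 2.09. Of 33 ratios of a member in a gate between the T cell libraries, 3 were past 1.5-fold. Of all genes, 14.0 to 27.9% were past it, by gate. The 3 became 5 with a margin of 2, 6 with gates from clusters, 5 with means over cells, 6 with the other minimum of genes and 2 with the mitochondrial limit of 20%. Combinations of member and library in whole tumors that kept their highest gate numbered 24, and 15 with gates from clusters. Of the 24, 8 belong to the sensitive library, where neutrophils were the only gate ranked. Of the 24 most similar genes 10 were kept with log2(CPM + 1).

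For *Cd274*-positive neutrophils the order between the whole-tumor libraries titled sensitive and resistant turns around. Without thinning the share was 53.7% and 62.1% (T cell sensitive and resistant) and 14.7%, 35.6% and 40.7% (whole-tumor control, sensitive and resistant). With thinning to 2000 (T cell) or 1000 (whole tumor) UMIs it was 54.8%, 54.7%, and 28.0% and 29.5% in the whole-tumor libraries titled sensitive and resistant. With at least 2 UMIs it was 20.7% in the whole-tumor library titled resistant. The cause of these differences was not tested. No paired analysis was possible because each group has 1 library.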

Other observations

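NK cells and mast cells or basophils lay outside the 6 gates. NK cells of the T cell libraries (48 sensitive and 34 resistant cells) held 71.9 and 90.3 CPM of *Pdcd1lg2* and 49.2 and 28.9 CPM of *Cd274*, with 0 UMIs of *Cd80*, *Cd86*, *Cd276* and *Nectin2* in both libraries. The *Pdcd1lg2* level of resistant NK cells, from 25 UMIs [58.5 to 133], was above every one of the 6 gates of that library. Its interval overlaps that of T cells, which led there with 54.6 CPM [50.1 to 59.3]. In the sensitive library NK cells stood below macrophages at 81.8 CPM. *Lgals9* in NK cells stood at 159 and 130 CPM. The 15 mast cells or basophils of the sensitive library held 176 CPM of *Pdcd1lg2*, from 7 UMIs, and 326 CPM of *Lgals9*.

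Neutrophils with a *Cd274* UMI were set beside neutrophils without one in each of the 5 libraries, over 597 genes. The genes higher in *Cd274*-positive cells by the most, as the mean log2 ratio over libraries, were Hilpda (1.36), Ero1l (1.32), Hmox1 (1.24), Bnip3 (1.23), Il1a (1.15) and Higd1a (1.08). Each was positive in 5 of 5 libraries, but the genes were ranked by the mean over these same libraries, so this is no separate check. Hilpda, Ero1l, Bnip3 and Higd1a are known as genes induced by low oxygen, Hmox1 degrades heme, and Il1a codes for an inflammatory cytokine. Median depth was higher in positive than in negative cells in every library, for example 1770.5 against 1518 UMIs in the whole-tumor control, and its part was not tested.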
